A study of Homo sapiens with 6 samples.

Results

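Cornulin (CRNN) was expressed from a lentivirus in Cal27 cells, a line from a human squamous carcinoma of the tongue, and the whole transcriptome was compared with that of Cal27 cells carrying a GFP vector. The members described here are all genes that passed edgeR's filter on low counts in these libraries, 15682 of the 57820 genes in the count table. They were measured in 4 of the 6 libraries of the series, replicates 1 and 2 of the CRNN cells (genotype Cornulin overexpression) and replicates 1 and 2 of the GFP cells (genotype GFP Expressing). Both groups were transduced with lentiviral particles in 8 µg/ml polybrene, were harvested after 48 h and carry batch 1. The series compares the CRNN cells with the vector control and with untreated Cal27 cells, and the untreated pair was used here only for an alternative fit. Each arm is thus 1 cell line with a forced transgene at 1 time, and the labels do not give the promoter that drove CRNN. The design text calls the libraries biological replicates, and the p-values measure the spread between these 4 samples.

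Cornulin is a calcium-binding protein of the S100 fused-type family that is made late in the differentiation of squamous epithelium, for example in the esophagus and the mouth. Its gene lies in the epidermal differentiation complex, beside genes for cornified envelope proteins such as the SPRR and S100 families. Interferon-stimulated genes are transcribed when interferon receptors signal to the nucleus, and many encode antiviral proteins. Metallothioneins are small cysteine-rich proteins that bind zinc and copper, and their genes are transcribed when the zinc-sensing factor MTF1 binds metal response elements in their promoters.

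CRNN itself was counted 21256 and 23062 times in CRNN replicates 1 and 2, and 59 and 32 times in GFP replicates 1 and 2. In CPM, counts scaled by TMM-adjusted library totals, its levels were 969.9 and 1037 in the CRNN cells and 3.12 and 2.57 in the GFP cells. The groups stood far apart, and CRNN rose by 8.45 on the log2 scale (standard error, SE, 0.40; edgeR quasi-likelihood test, Benjamini-Hochberg adjusted p = 5.17e-05). GFP itself has no row in the count table.

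Total counts ran from 11817105 in GFP replicate 2 to 22990621 in CRNN replicate 1, so that 3 counts corresponded to between 0.131 and 0.254 CPM. Mitochondrial transcripts took 25.6% to 29.3% of the counts. The summed level of 10 epithelial markers (among them KRT5, KRT14 and EPCAM) was 6021 to 7238 CPM in the CRNN libraries and 5561 to 5818 CPM in the GFP libraries. Summed levels of 9 fibroblast markers were 5.18 to 5.52 CPM in CRNN and 6.54 to 10.1 CPM in GFP libraries. The 10 immune markers summed to 8.65 to 9.61 and 6.13 to 7.36 CPM, and 7 endothelial markers to 9.74 to 12.7 and 10.8 to 16.3 CPM. Markers of the labelled epithelial cell type were thus abundant in all 4 libraries, and those of other cell types were low. In bulk RNA a larger share of cells with a transcript and more transcript per cell cannot be told apart, and this holds for every gene described.

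Across the transcriptome, 13 genes (0.0829% of those tested) passed an adjusted p under 0.05 with edgeR. Of these, 12 (0.0765%) rose and 1 (0.00638%) fell in the CRNN cells. The count depended on the fit: 3 genes passed in a fit of all 6 libraries, 87 with DESeq2, 41 and 19 without CRNN replicate 1 or 2, and 1398 and 2662 without GFP replicate 1 or 2, where the spread comes from the closer CRNN pair alone. An unadjusted p under 0.05 was reached by 1146 genes (7.31%), of which 394 (2.51%) were higher and 752 (4.8%) lower. Libraries of the groups did not overlap in 5963 genes (38%), 2989 higher and 2974 lower. With 2 libraries per group, non-overlap is frequent even where groups do not differ, so it is a description and no test. On the TMM scale, which centres the libraries on each other, 7795 genes (49.7%) had a positive log2 fold change and the median was -0.003. The quartiles lay at -0.28 and 0.23. At larger sizes the lower side was fuller, with 723 genes (4.61%) over 2-fold lower and 322 (2.05%) over 2-fold higher.

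The balance differed with abundance. Among the 2207 genes with a mean log2 CPM under 0, 425 were over 2-fold lower and 144 over 2-fold higher. Genes this low can pass the filter through the libraries of 1 group alone, and how many did so was not counted. Among the 2213 genes with a mean log2 CPM over 6, the counts were 22 and 19. The median size of the log2 fold change dropped from 0.57 in the first of these classes to 0.19 in the second. The balance also differed with gene type. Of 1628 long noncoding RNAs tested, 226 were over 2-fold lower and 21 over 2-fold higher, with a median of -0.27. Of 1104 pseudogenes 147 were lower and 67 higher, with a median of 0.02. Of 12371 protein-coding genes 291 were lower and 207 higher, also with a median of 0.02. The part of low counts in the differences between types was not tested. The only genes over 4-fold higher at a mean log2 CPM over 6 were IFI6 and ISG15, both interferon-stimulated, and none at that level was over 4-fold lower.

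**Figure D1:**
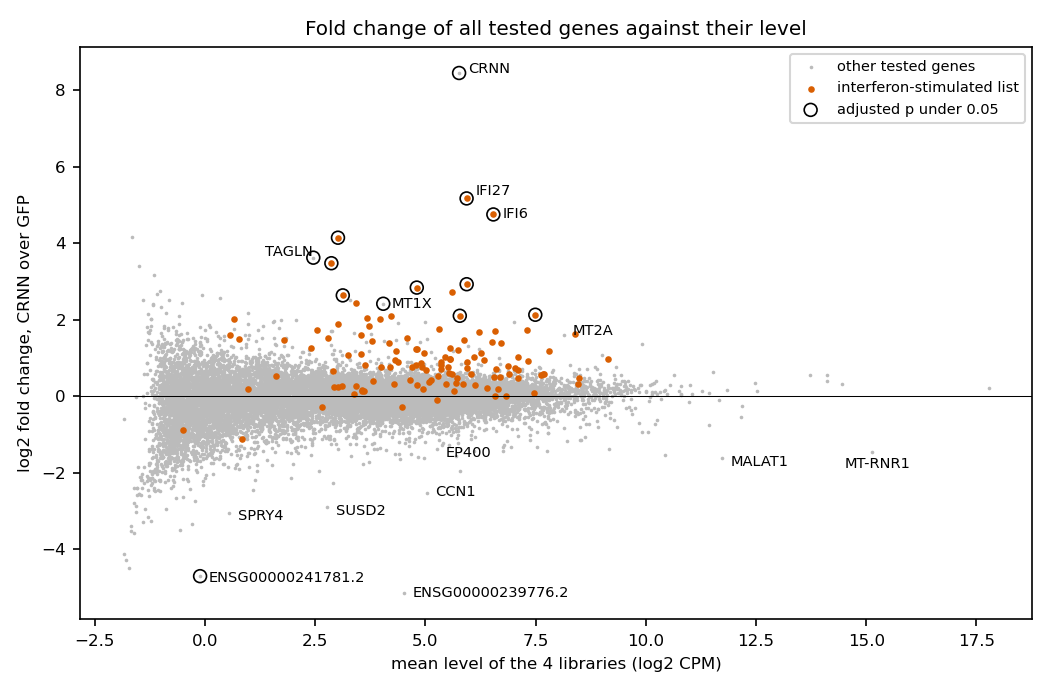
Log2 fold change of CRNN over GFP cells (vertical axis) against the mean level of the 4 libraries in log2 CPM (horizontal axis) for the 15682 tested genes. Each point is a gene, orange points are the list of interferon-stimulated genes, and rings mark the 13 genes with an adjusted p under 0.05, of which only ENSG00000241781.2 lies below 0.

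The 12 genes that rose were 9 members of the list of interferon-stimulated genes and CRNN, TAGLN and MT1X. Among the interferon-stimulated genes, IFI27, a mitochondrial antiviral protein, was at 331 and 407 CPM in CRNN cells and 11.8 and 8.59 CPM in GFP cells, a log2 fold change of 5.17 (SE 0.34; edgeR adjusted p = 0.000500). IFI6, another mitochondrial protein of the same family, was at 448 and 519 against 15.9 and 20.1 CPM, with a log2 fold change of 4.75 (SE 0.32). In both genes the groups did not overlap. The other 7 were IFI44L (4.14), XAF1 (3.48), MX1 (2.93), OAS1 (2.84), MX2 (2.63), ISG15 (2.13) and IFITM1 (2.10), where each value is a log2 fold change. IFI27 and IFI6 also passed with no filter and in the fit of all 6 libraries, and none of these 7 did. MX1 and MX2 encode dynamin-like GTPases that block viruses, OAS1 makes the second messenger that activates RNase L, and ISG15 is a ubiquitin-like modifier. IFITM1 has near-identical relatives, so its reads could have been divided among them.

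Over the whole interferon list, 114 of 120 tested members were positive, against 49.7% of all genes. The median log2 fold change was 0.81. At an unadjusted p under 0.05, 65 members were higher and 1 lower, beside 2.51% and 4.8% of all tested genes. The list therefore held 9 of the 12 genes that rose and 65 of the 394 that were higher at that unadjusted threshold, so 329 of the latter lay outside it. The list was drawn up with earlier results of these cells known and gives no independent evidence of its direction. It names 140 genes, and absence from it does not show that a gene is unresponsive to interferon.

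Promoters of 2 metallothionein and 2 interferon-stimulated genes are shown so that both kinds of element can be seen in sequence. Whether either group of genes depended on zinc, MTF1 or interferon here was not tested. Each sequence is the 250 bases before the RefSeq transcription start (GRCh38.p14), 5′ to 3′ on the gene's own strand. In MT1X (chr16:56682220-56682469, plus strand) and MT2A (chr16:56608334-56608583, plus strand), capitals mark the core of the metal response element, TGCACNC or TGCGCNC on either strand. In IFI27 (chr14:94110486-94110735, plus strand) and IFI6 (chr1:27672193-27672442, minus strand), capitals mark the core of the interferon-stimulated response element, which is GAAA, any 2 bases and GAAA, on either strand. MT2A did not pass the test and is shown as the most abundant metallothionein measured.
MT1X: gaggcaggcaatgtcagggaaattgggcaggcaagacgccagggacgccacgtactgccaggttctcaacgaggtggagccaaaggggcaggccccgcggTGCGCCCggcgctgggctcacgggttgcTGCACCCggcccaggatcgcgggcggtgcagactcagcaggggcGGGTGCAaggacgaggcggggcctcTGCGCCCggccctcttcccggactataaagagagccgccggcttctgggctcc
MT2A: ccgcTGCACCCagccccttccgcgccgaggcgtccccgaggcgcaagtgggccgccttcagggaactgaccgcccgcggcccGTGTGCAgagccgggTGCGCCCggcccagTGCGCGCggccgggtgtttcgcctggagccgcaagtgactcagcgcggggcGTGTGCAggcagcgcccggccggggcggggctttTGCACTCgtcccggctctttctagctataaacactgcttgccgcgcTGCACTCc
IFI27: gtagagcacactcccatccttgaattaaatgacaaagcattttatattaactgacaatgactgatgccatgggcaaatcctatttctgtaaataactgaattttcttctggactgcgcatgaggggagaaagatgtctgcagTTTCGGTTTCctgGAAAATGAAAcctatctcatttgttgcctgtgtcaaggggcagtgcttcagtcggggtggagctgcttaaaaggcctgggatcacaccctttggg
IFI6: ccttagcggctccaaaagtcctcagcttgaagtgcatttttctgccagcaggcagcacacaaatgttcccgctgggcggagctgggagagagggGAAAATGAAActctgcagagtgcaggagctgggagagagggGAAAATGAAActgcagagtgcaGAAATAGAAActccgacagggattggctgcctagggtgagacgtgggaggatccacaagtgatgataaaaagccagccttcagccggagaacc

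The MT1X window held 4 metal response cores and the MT2A window 7, with no overlap between sites. Of the 6 tested genes on the metallothionein list, 3 were matched to a promoter, SLC30A1 among them. All 3 held the core, SLC30A1 with 1 site. Of all 35116 promoters of the same length, 24.8% held it, and of the 10810 promoters of tested genes 33.2%. The interferon core occurred 2 times before IFI27 and 3 times before IFI6. It was found in 5 of 8 matched interferon-stimulated genes that rose, in 3.02% of all promoters and in 2.19% of those of tested genes. These matches describe letters, and binding was not measured. Both sets come from lists of genes already known for these elements, so the shares are no test. The cause of their rise was not tested.

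Outside the interferon list, the metallothioneins stood together. MT1X was at 36.6 and 40.2 CPM in CRNN cells and at 5.13 and 9.40 CPM in GFP cells. The lowest CRNN library lay well above the highest GFP library, and MT1X rose by 2.42 on the log2 scale (SE 0.32; edgeR adjusted p = 0.0418). After a correction of each library's trend with GC content and transcript length, the value was 2.18 with an adjusted p of 0.139, so this call rests on the uncorrected scale. MT1X also did not pass with upper-quartile or library-total scaling, with no filter or in the fit of all 6 libraries. MT2A, the major metallothionein of most human cells, was at 482 and 497 CPM against 153 and 170.5 CPM (log2 fold change 1.60, SE 0.27, adjusted p = 0.151). MT1E was at 270.5 and 279 CPM against 33.1 and 109.6 CPM (1.95, SE 0.48, adjusted p = 0.412). MT1M was at 3.97 and 3.82 CPM against 0.582 and 1.21 CPM (2.17, SE 0.43, adjusted p = 0.298). In all of these the CRNN replicates nearly coincided and GFP replicate 1 was the lowest library. Without GFP replicate 1 the log2 fold change of MT1E was 1.33, and without GFP replicate 2 it was 3.06. DESeq2 passed MT2A (adjusted p = 1.63e-06), MT1E (0.00263) and MT1M (0.0339) as well as MT1X.

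The other tested members were MT1F and SLC30A1, named after their values were seen so that all tested members are given. The list names 9 genes, of which 6 were tested. MT1F was at 4.38 and 4.45 CPM in CRNN and 1.80 and 2.65 CPM in GFP cells, a log2 fold change of 1.01. SLC30A1, a zinc exporter of the plasma membrane and also an MTF1 target, was at 19.8 and 19.01 CPM against 3.12 and 9.40 CPM, a log2 fold change of 1.66. Without GFP replicates 1 and 2 in turn, SLC30A1 was at 1.05 and 2.64, and its DESeq2 adjusted p was 0.0394. All 6 tested members thus had CRNN libraries above GFP libraries, beside 19.1% of all tested genes. All 6 also were higher at an unadjusted p under 0.05, beside 2.51%. Their median was 1.80, and 1 of the 6 passed over all genes. Metallothionein transcripts are alike in sequence, so reads of one member may have been counted for another. SLC39A10, a zinc importer outside the list, was at 17.3 and 17.7 CPM in CRNN and 46.6 and 34.1 CPM in GFP cells (log2 fold change -1.20, SE 0.26, adjusted p = 0.338).

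TAGLN, which encodes the actin-binding protein transgelin of smooth muscle and stromal cells, was at 20.4 and 17.2 CPM in CRNN cells and 1.06 and 2.09 CPM in GFP cells. These are 446 and 383 counts against 20 and 26. TAGLN rose by 3.62 on the log2 scale (SE 0.36; edgeR adjusted p = 0.00967), the largest outside the interferon list, apart from CRNN, among genes that passed. After the GC and length correction it was 3.76 (adjusted p = 0.0212), and TAGLN did not pass with no filter or in the fit of all 6 libraries. Fibroblast markers, with which TAGLN is often seen, summed to less in both CRNN libraries than in either GFP library (above), but 2 of the 4 that were tested were positive. Among them LUM, a matrix proteoglycan, was counted 15 and 11 times in CRNN and 3 and 2 times in GFP cells. LUM passed the filter on low counts only through the CRNN libraries. The part of fibroblast-like cells in the TAGLN value was not tested. PCSK7, which overlaps TAGLN on the opposite strand, was at 17.9 and 17.7 CPM against 26.2 and 18.1 CPM (log2 fold change -0.32). The strand setting of the counting is not given in the sources used here.

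The other named genes with the smallest p-values above and outside the interferon list were chosen only among genes whose libraries did not overlap. None passed over all genes. PTPRZ1, a receptor-type tyrosine phosphatase, was at 21.3 and 28.0 CPM in CRNN and 2.06 and 6.83 CPM in GFP cells (log2 fold change 2.51, SE 0.47, adjusted p = 0.234). SESN3, a stress-responsive sestrin that restrains mTORC1, was at 8.67 and 7.64 against 1.43 and 2.73 CPM (2.00, SE 0.36, adjusted p = 0.201). TMEM229B was the most even, at 5.61 and 5.66 against 1.43 and 1.45 CPM (1.97, SE 0.33, adjusted p = 0.146). PLAAT4, a phospholipid-metabolizing enzyme first described as induced by retinoids, was at 24.1 and 25.4 against 4.76 and 9.16 CPM, a log2 fold change of 1.85. ASB2, a substrate receptor of a ubiquitin ligase, and the small GTPase GIMAP2 had log2 fold changes of 1.78 and 1.84. SPOCK1, a secreted proteoglycan, had 1.52.

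KRT13, the keratin of suprabasal mucosal cells, was at 109.5 and 117 CPM in CRNN and 53.1 and 43.5 CPM in GFP cells (log2 fold change 1.23, SE 0.26, adjusted p = 0.336). Adjusted p-values of the genes in these 2 paragraphs ran up to 0.338, the value of SPOCK1. KRT13 was thus the most abundant of these genes, while the highest library of TMEM229B, ASB2, GIMAP2 and SPOCK1 lay between 4.86 CPM (GIMAP2) and 6.30 CPM (ASB2).

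On the lower side the gene that fell was ENSG00000241781.2, which has no name in the annotation used. It was counted 3 and 3 times in CRNN replicates 1 and 2 and 41 and 67 times in GFP replicates 1 and 2. The gene passed the filter on low counts only through the GFP libraries, where it was high. The ratio of GFP to CRNN counts, scaled for library size, was 25.4 with a 95% exact interval of 11.3 to 70.6 that covers counting error only, and the edgeR adjusted p was 0.0473. ENSG00000241781.2 did not pass with limma-voom, upper-quartile scaling, no filter, the GC and length correction or the fit of all 6 libraries. Another gene without a name, ENSG00000239776.2, was chosen after its values were seen because it had the most negative log2 fold change in the plot of fold change against level. Its levels were 5.70 and 3.82 CPM in CRNN and 39.8 and 298.8 CPM in GFP cells. The GFP replicates of ENSG00000239776.2 differed widely, and the log2 fold change of -5.15 (SE 0.83) had an adjusted p of 0.133.

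Among named genes below and outside the interferon list, CCN1 came first. This secreted matrix protein is a classical target of YAP, and was at 15.8 and 12.7 CPM in CRNN cells and 116 and 47.1 CPM in GFP cells (log2 fold change -2.52, SE 0.41, edgeR adjusted p = 0.136). SUSD2, a membrane protein with a sushi domain, was at 2.92 and 2.52 against 32.2 and 8.11 CPM (-2.90, SE 0.55, adjusted p = 0.262). In both genes the GFP libraries lay above the CRNN libraries, which their selection required, and GFP replicate 1 was the highest. Without GFP replicate 1 the log2 fold change of CCN1 was -1.72 and that of SUSD2 -1.57.

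Several of the next genes encode very long transcripts or proteins. EP400, the ATPase of a histone-exchange complex, was at 28.9 and 19.01 CPM in CRNN and 66.6 and 58.2 CPM in GFP cells (-1.38, SE 0.28, adjusted p = 0.332). PLEC, the cytolinker plectin, was at 80.7 and 57.2 against 199.9 and 149 CPM, with a log2 fold change of -1.34 before and -0.72 after the GC and length correction. ZNF469 had -1.77 and -1.15, and NEB, which encodes the muscle protein nebulin, -1.81 and -1.38. In this group the correction made each value smaller and left its sign.

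The remaining lower genes moved less under the correction. STX16, a SNARE of the trans-Golgi, was at 14.2 and 9.53 CPM against 28.4 and 38.8 CPM, with -1.50 before and -1.44 after it. PTPN12, a cytosolic tyrosine phosphatase, had -1.17 and -1.24. The imprinted antisense RNA KCNQ1OT1 had -1.29 and -1.42, but its corrected value rests on an annotated transcript of only 679 bases. Other lengths for KCNQ1OT1 were not tested. SLC7A11, the cystine importer, had -1.13 and -0.97. None of these passed over all genes.

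**Figure D2:**
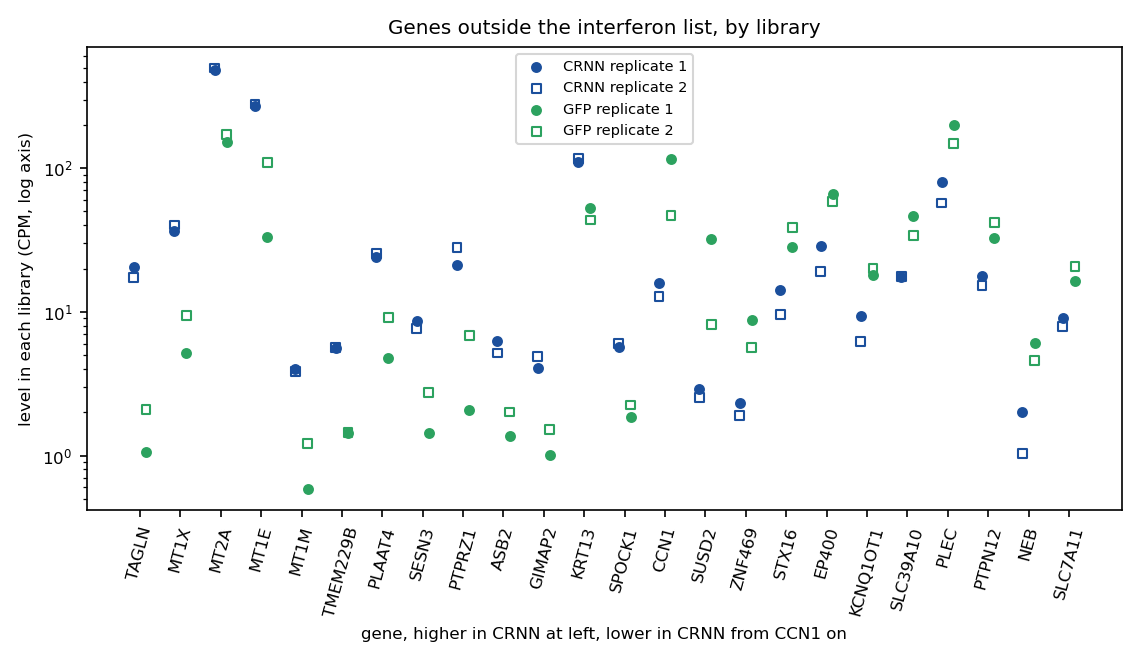
Level of each gene in each library (CPM, logarithmic vertical axis) for genes outside the interferon list. Blue marks are CRNN and green marks GFP replicates, filled for replicate 1 and open for replicate 2. For each gene both blue marks lie on the same side of both green marks, which was a condition for choosing most of these genes.

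Squamous differentiation genes, the program to which CRNN belongs, lay on both sides of 0. Of 37 tested members of the cornified envelope and late differentiation list, 11 were positive and 26 negative, with a median of -0.78, and none passed over all genes. At an unadjusted p under 0.05, 3 were higher and 10 lower, beside 2.51% and 4.8% of all tested genes. SPRR2G, a cornified envelope precursor, was counted 2 and 5 times in CRNN and 49 and 13 times in GFP cells. SPRR2G passed the filter on low counts only through the GFP libraries. The scaled ratio of GFP to CRNN was 12.5, with a 95% exact interval of 5.71 to 32.3 that covers counting error only. Its edgeR adjusted p was 0.262. SPRR2E was at 1.23 and 0.854 against 5.08 and 2.33 CPM, and the SPRR2 genes are near-identical copies whose reads may be exchanged. CALML3, an epithelial calmodulin-like protein, was on the other side, at 18.2 and 21.5 against 9.21 and 8.19 CPM (log2 fold change 1.19).

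The negative median depended on 1 library, and without GFP replicate 1 it was 0.06. SPRR1A, another envelope precursor, was at 8.99 and 9.40 CPM in CRNN cells, at 57.9 CPM in GFP replicate 1 and at 3.94 CPM in GFP replicate 2. S100A8 and RHCG, from outside that list, behaved alike. S100A8, a subunit of the inflammatory protein calprotectin, was at 9.90 and 10.1, 60.5 and 4.82 CPM in the same order. RHCG, an ammonium transporter of mucosal epithelium, was at 3.38 and 2.65, 15.2 and 1.04 CPM. In each of these the CRNN libraries lay between the GFP libraries, and the sign of the difference depended on the GFP replicate.

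Genes downstream of growth factor signalling showed the same dependence. All 23 tested members of the list of EGFR ligands and MAPK feedback genes were negative, with a median of -0.71. At an unadjusted p under 0.05, 5 were lower, beside 4.8% of all tested genes, and none passed over all genes. SPRY4, a feedback inhibitor of receptor tyrosine kinases, was at 0.730 and 0.450 CPM in CRNN and 8.52 and 1.04 CPM in GFP cells (log2 fold change -3.04, SE 0.81, adjusted p = 0.479). FOSL1, an AP-1 subunit, was at 38.7 and 31.9 against 246 and 30.4 CPM. DUSP4, a MAPK phosphatase, was at 10.9 and 9.80 against 42.7 and 10.6 CPM. GFP replicate 1 was the highest library in all 3, and the median of the list without it was 0.06, against -1.20 without GFP replicate 2.

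TGF-beta and YAP targets had 14 of 21 tested members negative and a median of -0.37. At an unadjusted p under 0.05, 6 were lower and 1 higher, beside 4.8% and 2.51% of all tested genes. The median was -0.14 without GFP replicate 1, -0.22 without CRNN replicate 1 and -0.57 without GFP replicate 2. CCN2, a relative of CCN1, was at 1.28 and 1.17 against 6.19 and 2.25 CPM. On the mesenchymal and matrix list, 12 of 20 tested members were negative, with a median of -0.03, and 5 were lower and none higher at an unadjusted p under 0.05. Its member THBS1, which encodes thrombospondin-1, was abundant, at 986 and 716 CPM in CRNN and 3428 and 1554 CPM in GFP cells (log2 fold change -1.55, SE 0.43, adjusted p = 0.484). LOXL2, a lysyl oxidase that cross-links collagen, was at 21.95 and 19.8 against 50.6 and 35.8 CPM (-1.05). CRNN libraries lay below GFP libraries for THBS1, CCN1, CCN2 and LOXL2.

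Proteases of invasion had a median of 0.04 over 21 tested members, yet 3 matrix metalloproteinases spread widely. MMP1, an interstitial collagenase, was at 71.0 and 97.1 CPM in CRNN cells, 3.55 CPM in GFP replicate 1 and 40.9 CPM in GFP replicate 2. MMP10 was at 62.9 and 97.0, 0.635 and 42.2 CPM, and MMP13 at 35.5 and 60.8, 2.12 and 33.2 CPM. Each was higher in both CRNN libraries, but the log2 fold change of MMP10 lay between 0.93 and 6.97 according to which library was left out. MMP7, matrilysin, was counted 46 and 90 times against 3 and 12 times.

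Mitochondrially encoded messenger RNAs were lower and their nuclear partners slightly higher. All 13 tested mitochondrial messages were negative, with a median of -1.06. In 12 of them the CRNN libraries lay below the GFP libraries, beside 19% of all tested genes. The 13 messages are not independent replicates. MT-ND1, a complex I subunit, was at 188 and 86.7 CPM in CRNN and 393 and 345 CPM in GFP cells (log2 fold change -1.43, SE 0.37, adjusted p = 0.455). MT-ATP6, of the ATP synthase, was at 258 and 148 against 466 and 445 CPM. The mitochondrial ribosomal RNAs differed from each other: MT-RNR1 was at 25100 and 20430 against 33700 and 92630 CPM (-1.47), and the more abundant MT-RNR2 at 265400 and 222900 against 253900 and 169600 CPM (0.21, adjusted p = 0.962). After the GC and length correction the median of the messenger RNA list was -1.30. With each library left out in turn, the uncorrected median ran from -1.60 to -0.64. The 2 CRNN libraries themselves differed, with replicate 2 the lower in MT-ND1, MT-ATP6 and MT-ND6.

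Of 34 nuclear genes of oxidative phosphorylation, 33 were positive, with a median of 0.29. In 18 the CRNN libraries lay above the GFP libraries, beside 19.1% of all tested genes. SDHD, a subunit of complex II, was at 25.3 and 33.1 against 15.5 and 21.7 CPM (log2 fold change 0.65). Proteasome subunits were positive in 28 of 29 with a median of 0.23, and PSMD7 of the regulatory particle was at 68.5 and 75.6 against 44.4 and 57.7 CPM. Cytosolic ribosomal proteins were positive in 49 of 55 with a median of 0.18. Their median was -0.09 in the pair of replicates 1 and 0.55 in that of replicates 2, and 0.44, 0.05, 0.32 and 0.08 without GFP replicate 1, GFP replicate 2, CRNN replicate 1 and CRNN replicate 2. The correction reduced the medians of the 3 lists to 0.17, 0.12 and 0.04, and none of the members passed over all genes. The part of transcript length in these values was not tested beyond this correction.

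Large chromatin regulators were their counterpart. Of 29 tested members with long transcripts, 28 were negative, with a median of -0.59. At an unadjusted p under 0.05, 14 were lower, beside 4.8% of all tested genes. In 19 the CRNN libraries lay below the GFP libraries, beside 19% of all tested genes. Both counts are from the uncorrected scale. The median transcript length of the list was 9001 bases. Among the 1164 genes in the bin of longest transcripts (below), 109 were lower at an unadjusted p under 0.05. TRRAP, a scaffold of histone acetyltransferase complexes, was at 54.3 and 41.9 CPM against 98.9 and 103.6 CPM (log2 fold change -1.07, SE 0.26, adjusted p = 0.397). SETD1B, a histone H3 lysine methyltransferase, had -1.11 and the splicing scaffold SRRM2 -1.14. After the GC and length correction the list's median was -0.25.

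Proliferation, replication, p53, cholesterol, unfolded protein and heat shock genes had fitted medians between -0.08 and 0.16. The medians were -0.07 over 32 mitosis genes, 0.06 over 32 DNA replication genes, -0.08 over 19 p53 targets, 0.01 over 26 cholesterol and fatty acid genes, 0.00 over 26 genes of the unfolded protein and integrated stress response, and 0.16 over 12 heat shock genes. No member of these lists passed the test. The mitosis median was 0.20 in the pair of replicates 1 and -0.15 in that of replicates 2. In the same order, p53 targets had -0.20 and 0.18, and cholesterol and fatty acid genes -0.09 and 0.11. The remaining lists had the same sign in both pairs, with heat shock genes at 0.16 and 0.15. With each library left out in turn, the mitosis median ran from -0.23 to 0.24. MKI67, the proliferation marker Ki-67, was at 284 and 227 CPM in CRNN, 344 CPM in GFP replicate 1 and 780 CPM in GFP replicate 2 (log2 fold change -1.14, SE 0.39, adjusted p = 0.599). SOX2, a transcription factor of squamous progenitors on the basal keratinocyte list, was at 11.6 and 16.5 against 2.01 and 6.91 CPM (1.70, SE 0.48, adjusted p = 0.503). KRT5, the keratin of basal cells, was at 3420 and 4008 against 1938 and 2890 CPM (0.62).

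**Figure D3:**
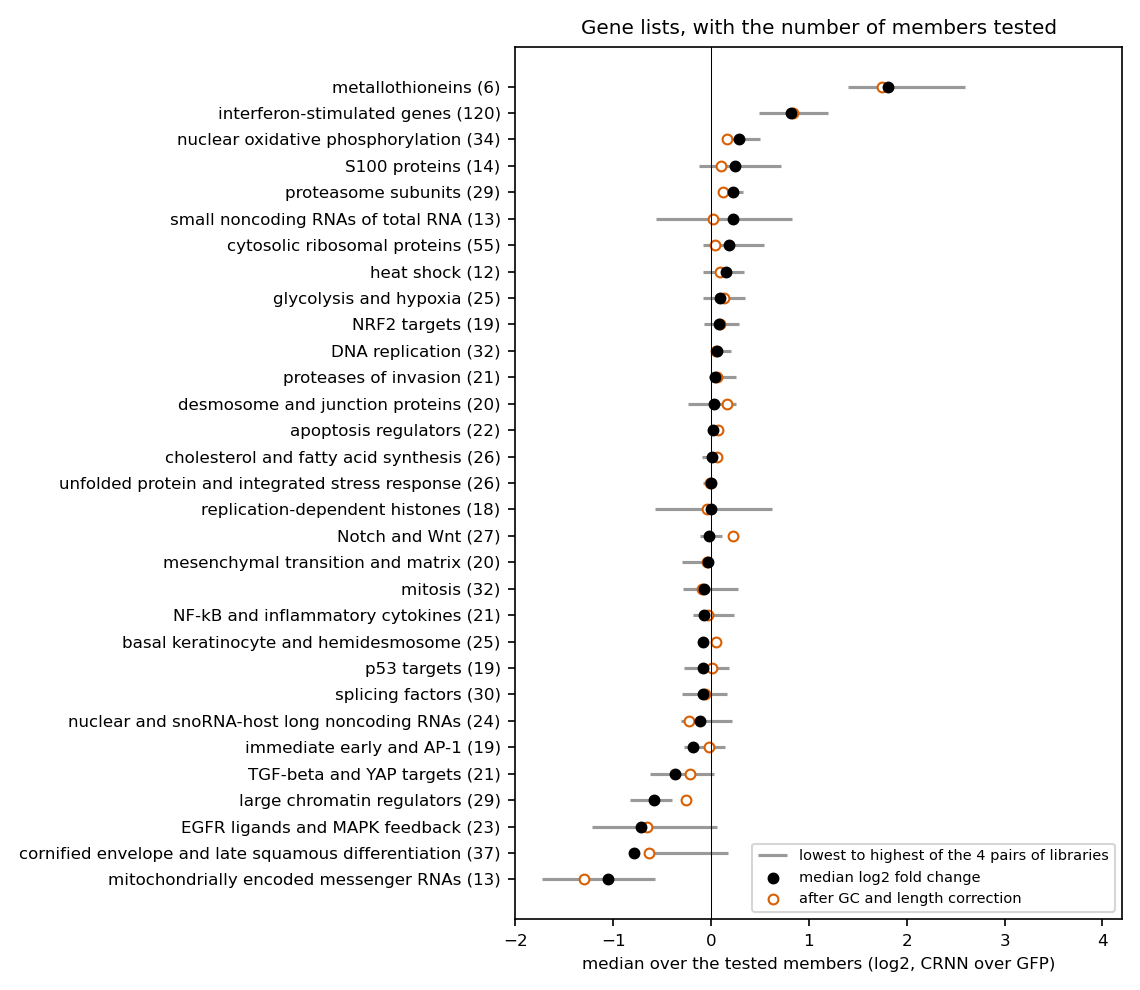
Median log2 fold change of CRNN over GFP cells over the tested members of each gene list, with the number tested after the list's name. Black points are the medians of the fit, open orange points the medians after the GC and length correction, and grey bars the lowest to the highest median of the 4 pairs of 1 CRNN and 1 GFP library, which use a prior count of 2 and need not enclose the fitted median. Metallothioneins, at 1.80, and interferon-stimulated genes, at 0.81, lie farthest above 0, and mitochondrially encoded messages, at -1.06, farthest below.

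The agreement of the replicate pairs was examined over 11829 genes whose log2 CPM averaged 1 or more. CRNN replicate 1 minus GFP replicate 1 and CRNN replicate 2 minus GFP replicate 2 share no library, and the replicate numbers are only names. Across these genes, which are not independent replicates, the 2 differences had Pearson r = 0.26 and Spearman rho = 0.12, and 52.2% of genes had the same sign in both. Over the 114 members of the interferon list at this level, r was 0.72 and 86% had the same sign. Outside the list r was 0.21.

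Genes with large differences in both pairs were more uniform. In all, 122 genes differed over 2-fold in both pairs, 64 higher in both, 47 lower in both and 11 in opposite directions, so 91% had the same direction. Of the 64 higher genes 30 were on the interferon list and 34 outside it, with CRNN, TAGLN, MT1X, MT2A and PTPRZ1 among the latter. Whether any of these 34 respond to interferon was not tested. None of the 47 lower genes was on the interferon list, and CCN1, SUSD2 and EP400 were among them. MALAT1, a nuclear long noncoding RNA, shows how 1 pair could carry a difference, at 2805 and 1374 CPM in CRNN cells, 3960 CPM in GFP replicate 1 and 8843 CPM in GFP replicate 2.

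**Figure D4:**
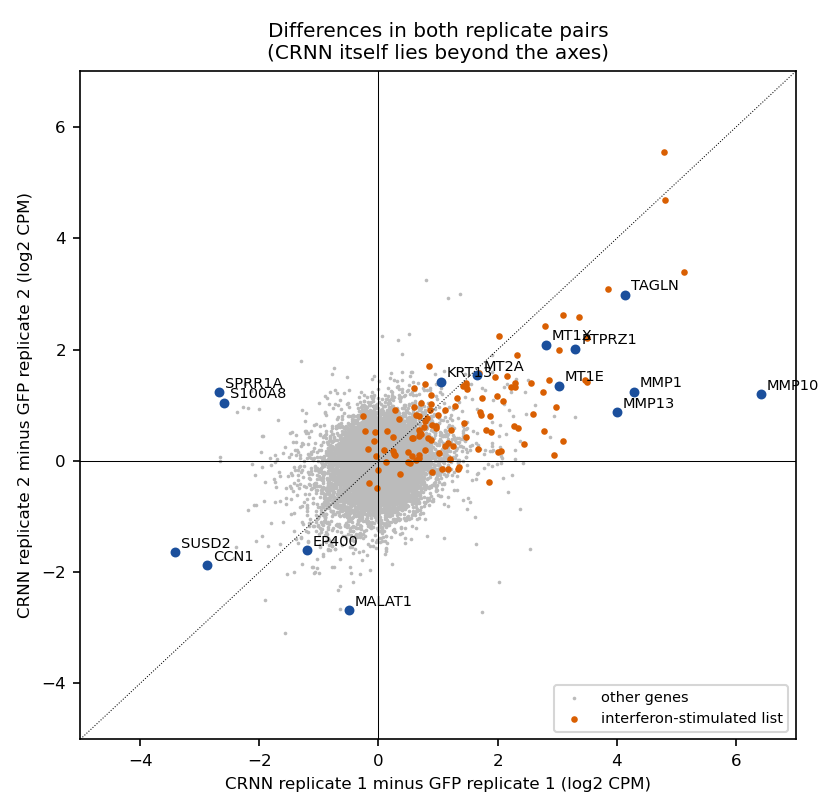
Difference in log2 CPM of CRNN minus GFP cells in the pair of replicates 1 (horizontal axis) against the pair of replicates 2 (vertical axis) for genes whose log2 CPM averaged 1 or more. Orange points are the interferon list, blue points are labelled genes, and the dotted line marks equal differences. TAGLN and MT1X lie at upper right, CCN1 and SUSD2 at lower left, and SPRR1A and S100A8 on opposite sides of 0 in the 2 pairs.

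Much of the disagreement lay between the GFP replicates. The median SD of a gene's log2 CPM was 0.11 between the CRNN replicates and 0.30 between the GFP replicates. Over 2-fold differences between replicates occurred in 70 genes in the CRNN cells and in 1079 in the GFP cells. GFP replicate 1 was over 4-fold above all 3 other libraries in 13 genes and over 4-fold below them in 24, and GFP replicate 2 in 1 and 4 genes. No gene stood so far apart in either CRNN library. SPRR1A, S100A8 and RHCG were the genes farthest apart with GFP replicate 1 the higher, and MMP10 and MMP13 were among those with GFP replicate 2 the higher.

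The GFP libraries diverged along GC content and transcript length. Over 11633 genes with both values, the deviation of GFP replicate 1 from the mean of the 4 libraries had a Spearman rho of 0.63 with GC content, and that of GFP replicate 2 -0.50. CRNN replicates 1 and 2 had 0.01 and -0.28. With transcript length the values were -0.14 and 0.45 for GFP replicates 1 and 2, and -0.17 and -0.28 for CRNN replicates 1 and 2. GFP replicate 1 was thus richer in transcripts of high GC content and GFP replicate 2 in long transcripts of low GC content.

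In the mean over replicates the opposite GC trends of the GFP libraries partly offset each other. CRNN minus GFP had rho -0.20 with GC content and -0.29 with length. Genes were divided into 10 bins of equal number. In the bin of highest GC content the median log2 fold change was -0.14, with 16 genes higher and 74 lower at an unadjusted p under 0.05. In the bin of longest transcripts, of 7623 bases or more, it was -0.20, with 9 higher and 109 lower. In the bin of shortest transcripts it was 0.19, with 76 higher and 30 lower. The bins of highest GC content and of longest transcripts held 1164 genes each, and that of shortest transcripts 1165. Over all tested genes 2.51% were higher and 4.8% lower at that threshold.

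Removing each library's trend raised the number of genes with an unadjusted p under 0.05 to 733 higher (4.67%) and 859 lower (5.48%). In the bin of longest transcripts, 99 genes were then higher and 60 lower at an unadjusted p under 0.05. Over all genes 11 passed an adjusted p under 0.05 (0.0701%), all of them higher, and 10 of these had passed without the correction. The 3 that no longer passed were IFITM1 (adjusted p = 0.105), MT1X (0.139) and ENSG00000241781.2 (0.0805). The correction brought the pairs closer, to r = 0.37 and 58.1% of genes with the same sign. TAGLN, CCN1 and the metallothioneins kept their signs under it.

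**Figure D5:**
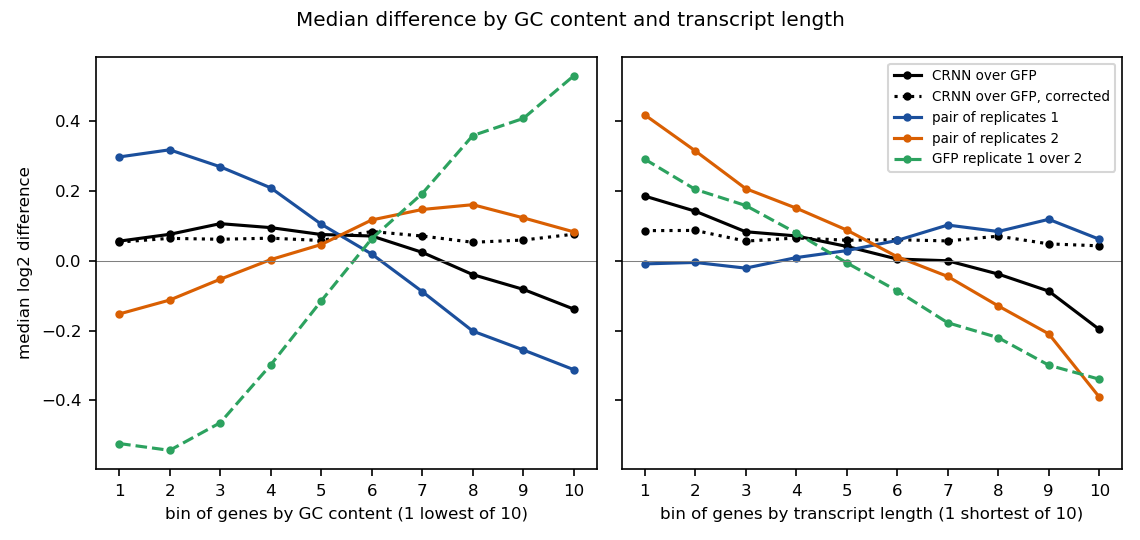
Median log2 difference (vertical axes) in 10 bins of genes by GC content (left) and by transcript length (right), from lowest or shortest to highest or longest. Solid black is CRNN over GFP, dotted black the same after correction, blue and orange the pairs of replicates 1 and 2, and dashed green GFP replicate 1 over replicate 2, which climbs from below 0 to above 0 along GC content.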

How the data were processed

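RNA from Cal27 cells was sequenced as stranded total RNA, per the labels' protocols. The authors deposited counts, whole numbers of reads per Ensembl gene with no normalization, for 57820 genes. Tools listed in the submitters' processing notes are edgeR, HTSeq 0.6.1, STAR 2.6, bcl2fastq and FastQC 0.11.7, and more than 1 genome build is listed. The build, annotation and strand setting of the counting are not given in the sources used here.

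Only the 2 CRNN and 2 GFP libraries were fitted. The filter of edgeR 4.0.16 (R 4.3.3; minimum count 10, minimum total 15) kept 15682 genes. Of these, 15268 (97.4%) had a name, GC content and transcript length in GENCODE release 44 by identifier, and 414 had none. The test was edgeR's quasi-likelihood F test with TMM factors, two-sided, with no covariate and with Benjamini-Hochberg adjustment over all tested genes. The common dispersion had a square root of 0.225. With 2 residual degrees of freedom a gene's spread leans on that of all genes (prior degrees of freedom 7.29). Log2 CPM of single libraries used a prior count of 2. For the GC and length correction, natural splines (4 degrees of freedom) were fitted to every library's deviations and subtracted. Replicates differed beyond sampling noise in both groups. The procedure was tested on simulated counts.

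The members and the gene lists were chosen with earlier results of these data known. Genes named were CRNN, those passing the test, the 12 each way outside the interferon list with the smallest p among named genes whose log2 CPM averaged 1 or more and whose libraries did not overlap, the members of each list with the smallest p (4 at most), the 5 most abundant, and the 3 each way farthest apart between the GFP replicates. MT1F, SLC30A1, PCSK7 and ENSG00000239776.2 lie outside this rule and were chosen after their values were seen. A gene that the rule also names is not reported here. The alternatives were RLE, upper-quartile and library-total scaling, other filters, DESeq2 1.42.0, limma-voom (limma 3.58.1), a fit of all 6 libraries, a replicate block, the GC and length correction, removal of the 10 most abundant genes, other thresholds and each library left out.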

Additional observations from a re-analysis of the deposited data

How the results depend on the processing

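The number of genes passing, 13 in the fit described, was 13 with RLE scaling, with a filter of 1 CPM and without the 10 most abundant genes, 12 with limma-voom, 11 with library totals and 10 with upper-quartile scaling. It was 3 with no filter, 3 in the fit of all 6 libraries, 4 at an adjusted p under 0.01 and 87 with DESeq2. The fit of all 6 libraries and the unfiltered fit kept only CRNN, IFI27 and IFI6 of the 13 calls. Both lost the interferon-stimulated genes OAS1, XAF1, IFI44L, MX1, MX2, IFITM1 and ISG15 as well as TAGLN, MT1X and ENSG00000241781.2. The labels do not say what a replicate number marks, so the replicate block was not used. With it 330 genes passed, and 498 with the GC and length correction and the block together, all 13 calls included in both. Replicate 1 minus replicate 2 correlated between CRNN and GFP cells with r = 0.26 across genes, and 2 pairs cannot show whether the numbers pair the samples.

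Leaving out 1 library gave between 19 and 2662 genes passing. The upper end came from leaving out a GFP replicate (1398 without replicate 1, 2662 without replicate 2), where the lone GFP library was assumed to vary like the CRNN pair. The 13 calls kept their direction under each of the refits named here. Log2 fold changes over the libraries left out crossed 0 for SPRR1A (-2.65 to 1.23), S100A8 (-2.59 to 1.05), S100A7 (-2.73 to 0.035), RHCG (-2.33 to 1.53), FOSL1 (-2.79 to 0.22), SNORD3A (-0.39 to 2.14) and MT-RNR2 (-0.048 to 0.53), the last of which was -0.018 with the GC and length correction. At a mean log2 CPM of at least 4, the agreement of the pairs was r = 0.22 with 49.2% of the same sign, and libraries did not overlap in 2360 genes, fewer genes being counted. There GFP replicates 1 and 2 had rho 0.70 and -0.57 with GC content, and replicate 2 had 0.55 with length. The GC and length correction gave r = 0.37 and 58.1%. The cause of these differences was not tested. Depth limits genes near 0.254 CPM, which is 3 counts in GFP replicate 2, and p-values rest on 2 libraries per group.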
